A study of Mus musculus with 4 samples.

Results

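The clustered histone genes are the replication-dependent histone genes that lie in 4 groups in the mouse genome. They were taken as every gene whose symbol begins with Hist1h, Hist2h, Hist3h or Hist4h, which gave 67 of the 31053 genes in the deposited matrices. They code for 6 linker histones H1 and for the 4 core histones, with 18 genes for H2A, 18 for H2B, 12 for H3 and 13 for H4. The Hist1 group holds 54 of them on chromosome 13, the Hist2 group 10 on chromosome 3, the Hist3 group 2 on chromosome 11 and the Hist4 group 1 on chromosome 6. Raw counts of unique molecular identifiers (UMIs, 1 per captured RNA molecule) were read for these genes in live lung cells sorted for CD45.2, a surface protein of blood-borne cells. The KO group was 2 Lmna-flox/flox Vav1-cre+/- mice and the WT group 2 Lmna-flox/flox Vav1-cre-/- mice, all C57BL/6J and aged 10 weeks. The Vav1 promoter drives Cre in blood-forming cells and their descendants, and the deletion of Lmna, the gene of lamins A and C of the nuclear envelope, is directed to that lineage. Every KO mouse carries Cre and no WT mouse does, so what Cre does and what the loss of Lmna does cannot be told apart.

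The 2 KO libraries held 21780914 and 21849805 UMIs and the 2 WT libraries 26433722 and 27045250. After filters, 3655 and 3488 KO cells and 3817 and 3760 WT cells were used, with a median of 4060 to 4847 UMIs per cell in the 4 libraries. Lmna had 283 and 312 UMIs in the KO libraries and 1807 and 1355 in the WT libraries. Cells were gated into classes by fixed marker genes, and each class is named for the cell type its markers are known from (B cells for B cell-like cells, and so on). In the 9 classes tested, the 10 leading genes included no marker of another class, and in 8 of them they included at least 1 marker of their own. The exception was the other T cells, which express T cell genes and were placed in neither the CD4 nor the CD8 class. The gate itself asked for these markers, so their place among the leading genes is no independent test of the class names. WT 2 stood apart from the other libraries: it held 393 T cell precursors, against 0 and 10 in the KO libraries and 0 in WT 1. Barcodes found in more than 1 library numbered 46 among the cells kept. The labels do not say whether animals with the same replicate number belong together, so the libraries were taken as unpaired. The p-values set each difference against the spread between these libraries.

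Clustered histone genes are switched on when DNA is copied, to package the new strand. Their messenger RNAs usually end not in a poly(A) tail but in a stem-loop that SLBP, the stem-loop binding protein, holds, and they are destroyed when copying stops. Some of these genes also make polyadenylated transcripts in cells that have stopped dividing. The kit used here primes on poly(A), so the counts are of the polyadenylated forms or of RNA primed at internal A-rich stretches. Such stretches can also lie in tailless forms. The counts do not tell the forms apart and do not measure the tailless ones. Reads come from the 3' end and levels were not divided by transcript length.

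The stem-loop of the members on which the results turn was read from GENCODE M21 transcripts on mm10, an annotation that may differ from the one used for counting. Capitals mark the 16-base stem-loop, and all sequences run 5' to 3' on the transcribed strand. The letters searched for on that strand were a stem of GGCTCT or GGCCCT, a loop of TTTC or TTTT, and the reverse complement of the stem. A match was present in 35 of 67 members (52.2%), against 38 of 21901 protein-coding genes (0.174%). A missing exact match says only that these letters are not in the annotated transcript.
Hist1h2ap (H2A, chr13:21833026-21833049, minus strand): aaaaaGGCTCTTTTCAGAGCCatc
Hist1h2ae (H2A, chr13:23570663-23570688, minus strand): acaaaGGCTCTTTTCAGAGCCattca
Hist2h2aa1 (H2A, chr3:96246027-96246052, plus strand): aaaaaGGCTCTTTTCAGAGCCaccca
Hist1h1c (H1, chr13:23739507-23739532, plus strand): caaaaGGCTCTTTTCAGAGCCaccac
Hist1h1e (H1, chr13:23621777-23621802, minus strand): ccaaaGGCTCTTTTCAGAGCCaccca
Hist1h4d (H4, chr13:23581945-23581970, plus strand): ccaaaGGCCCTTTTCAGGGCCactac
Hist1h4i (H4, chr13:22040961-22040986, minus strand): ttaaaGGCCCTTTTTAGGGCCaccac

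The transcript of Hist1h2ap was annotated to stop 3 bases after the stem-loop, and that of Hist2h2aa1 35 bases after it. Those of Hist1h1c and Hist1h1e ran on for 840 and 1153 bases, and those of Hist1h4d and Hist1h4i for 770 and 330 bases. The 15 members with more than 300 annotated bases after the stem-loop had a median of 1017 UMIs over all libraries. The 17 members with at most 60 bases after it had a median of 123 UMIs, and the 32 members with no exact match had a median of 109.5. Hist1h1b, Hist1h2bc and Hist1h1a were among those without a match. The members are near copies of one another, so the number of annotated 50-base windows found in no other member was counted. Hist1h1b had 694 of 694 such windows, Hist1h1c 1382 of 1511, Hist1h2bc 774 of 1107 and Hist1h2ae 372 of 655. Hist1h2ap had 30 of 433, all within its first 79 of 482 bases, and Hist2h2aa1 had 57 of 537, all within its first 106 of 586 bases. Among the 20 members with the most UMIs these 2 had the lowest shares, and both share windows with other H2A genes. Their counts depend on how reads of shared stretches were assigned and are uncertain for that reason.

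Promoters were available for 61 members in RefSeq's GRCm38.p6 table (250 bases before to 50 after the start of the gene). CCAAT, the box bound by NF-Y, was present on either strand in 52 of 61 (85.2%), against 41.1% of 27025 genes. TATAAA was present on either strand in 35 of 61 (57.4%), against 15.7% of genes. AAACACA, known from H1 promoters, was present on either strand in 9 of 61 members (14.8%) and in 5 of 6 H1 genes, against 8.22% of genes. TATAAA and AAACACA can overlap in their shared letters, and a match is a description of the sequence only. The 250 bases before the start are shown for 2 H1 genes that differed in opposite directions between cycling and resting cells, with matches in capitals, counting ATTGG as CCAAT on the other strand.
Hist1h1b (GRCm38.p6, chr13:21780626-21780875, minus strand): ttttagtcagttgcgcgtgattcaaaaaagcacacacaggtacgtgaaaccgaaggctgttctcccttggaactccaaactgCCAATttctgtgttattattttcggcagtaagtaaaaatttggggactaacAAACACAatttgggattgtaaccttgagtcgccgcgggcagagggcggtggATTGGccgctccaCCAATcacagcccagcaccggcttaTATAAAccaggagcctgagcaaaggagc
Hist1h1c (GRCm38.p6, chr13:23738557-23738806, plus strand): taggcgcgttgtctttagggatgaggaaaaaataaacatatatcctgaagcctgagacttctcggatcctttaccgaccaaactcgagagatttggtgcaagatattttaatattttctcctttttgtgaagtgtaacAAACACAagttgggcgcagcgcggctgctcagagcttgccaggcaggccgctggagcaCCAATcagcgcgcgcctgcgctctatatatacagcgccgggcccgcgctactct
Hist1h1b has 3 CCAAT matches, 1 TATAAA match and 1 AAACACA match in this window, and Hist1h1c has 1 CCAAT match, no TATAAA match and 1 AAACACA match.

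Together the 67 members had 52362 of the 88198615 UMIs of the cells used. Of them, 4 had no UMI at all (Hist1h2aa, Hist1h2ba, Hist1h2bq and Hist2h2aa2), 19 had 1 to 99, and 44 had 100 or more. Over all libraries Hist1h1c, Hist1h2ap, Hist1h1e, Hist1h1b and Hist1h2bc had the most and held 53.6% of the UMIs, with most of the Hist1h2ap and Hist1h1b UMIs in WT 2. Hist1h1c, a linker histone gene, had 2086 and 2168 UMIs in the KO libraries and 2253 and 2320 in the WT libraries. Hist1h2bc, an H2B gene, had 916 and 821 UMIs in the KO libraries and 1168 and 1124 in the WT libraries. Hist1h1e, a linker histone gene, had 900 and 1095 UMIs in the KO libraries and 1157 and 1753 in the WT libraries. For Hist1h1c and Hist1h2bc the 4 libraries lay close together. Hist1h2ap, an H2A gene, had 60 and 159 UMIs in the KO libraries, against 752 and 4962 in the WT libraries. Hist1h1b, a linker histone gene, had 337 and 351 UMIs in the KO libraries and 372 and 3301 in the WT libraries. Hist1h2ae, an H2A gene, had 122 and 239 UMIs in the KO libraries and 296 and 2291 in the WT libraries. WT 2, the library with the T cell precursors, was far above the other 3 libraries for Hist1h1b and Hist1h2ae, whereas for Hist1h2ap both WT libraries were above both KO libraries.

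**Figure D1:**
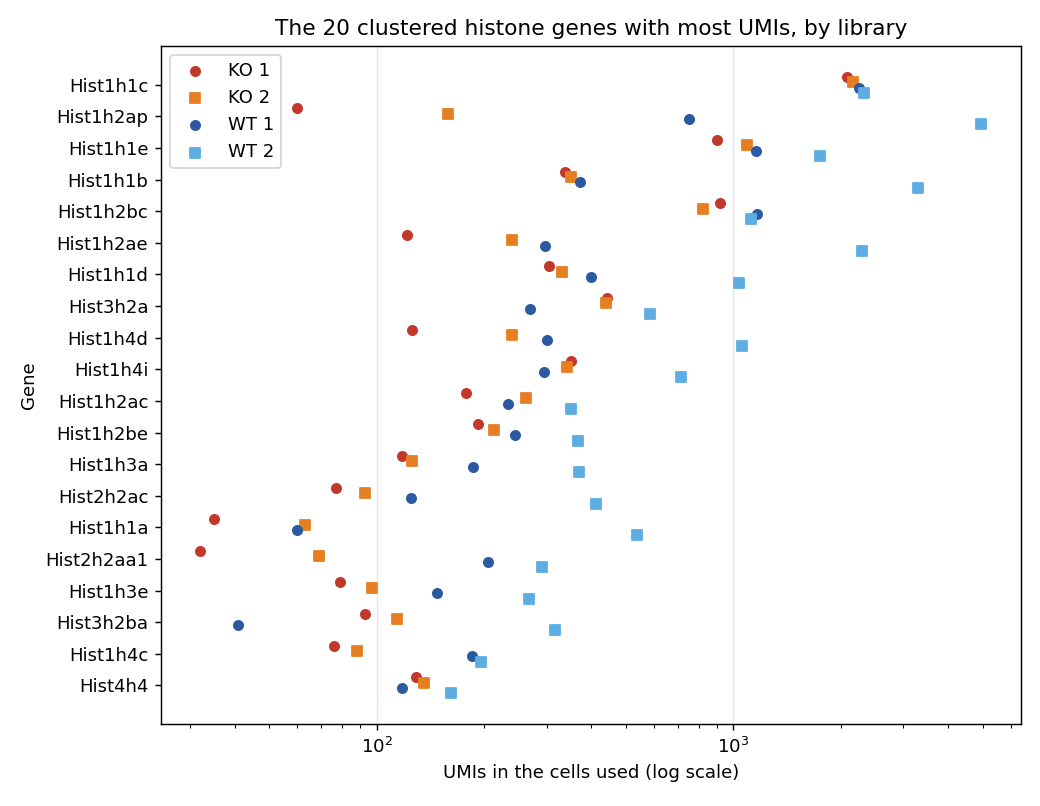
UMIs (log scale) of the 20 clustered histone genes with the most UMIs in each of the 4 libraries, 1 point per library, over all cells used. WT 2 lies to the right for the genes counted in dividing T cell precursors, and Hist1h2ap runs from 60 UMIs in KO 1 to 4962 in WT 2.

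Levels were then compared between classes, as CPM, the UMIs of a gene scaled to a common total of UMIs in each library and class. Each class was set against the mean of the other 8 classes over all 4 libraries, with edgeR's quasi-likelihood test and Benjamini-Hochberg adjustment over all genes at 0.05. Of 216 tests on the 24 members that passed the filter on low counts, 119 were called, against 61.5% of all gene tests. Of these, 69 were higher (34.4% of all gene tests) and 50 lower (27.2%), so the share of members called was near that of all genes and the result lies in which members differ. The filter took all classes together, so a member could enter on its counts in other classes. In the comparison of KO with WT inside a class, 6 members passed the filter in alveolar macrophages and 5 in neutrophils. The lower calls in these classes therefore include members with few counts there.

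Neutrophils, the short-lived phagocytes that no longer divide once mature, had the highest levels of a small set of members. Hist1h2bc averaged its highest level of the 9 classes there, with 336.5 and 201.3 CPM in KO neutrophils and 250.3 and 234.0 CPM in WT neutrophils. In NK cells it had 10.7 and 8.6 CPM in KO libraries and 7.6 and 7.2 CPM in WT libraries, well below every neutrophil value. Hist1h2bc was higher in neutrophils than in the other classes by 4.91 ± 0.09 on the log2 scale (SE, adjusted p = 1.44e-45). Hist1h2be, another H2B gene, had 46.9 and 48.5 CPM in KO neutrophils and 46.2 and 44.6 CPM in WT neutrophils. The 4 libraries were nearly equal, and the gene was higher by 3.57 ± 0.16 (adjusted p = 9.64e-28). Hist1h4i, an H4 gene, had 93.8 and 51.7 CPM in KO neutrophils and 39.9 and 40.7 CPM in WT neutrophils, and was higher by 3.03 ± 0.15 (adjusted p = 6.79e-25). Hist1h1c had 295.0 and 218.0 CPM in KO neutrophils and 276.1 and 164.4 CPM in WT neutrophils, and was higher by 2.30 ± 0.08 (adjusted p = 3.47e-30). Hist2h2aa1 (by 2.89) and Hist1h4h (by 1.28) were also higher, which made 6 of 24 members higher and 11 lower in neutrophils, against 73.4% of all genes called (34.1% higher and 39.3% lower). Among the lower ones were the linker histone genes Hist1h1e (-2.09) and Hist1h1d (-1.54) and the H3 gene Hist1h3a (-3.90). The median of all genes lay at -0.29 in this contrast, so each value stands against that shift. Neutrophils had the fewest UMIs per cell of the 9 classes, with class medians of 2082.5 and 2136 in the KO libraries and 2284 and 2215.5 in the WT libraries.

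In alveolar macrophages, the resident phagocytes of the airspaces, 18 of 24 members were lower than in the other classes and 1 was higher, against 69.2% of all genes called (30.4% lower and 38.8% higher). The higher one was again Hist1h2bc, with 162.4 and 196.2 CPM in KO libraries and 153.9 and 130.9 CPM in WT libraries (3.12 ± 0.10, adjusted p = 5.06e-34). Each of these values lay above those of B cells, where the gene had 25 and 30.5 CPM in KO libraries and 26 and 21.1 CPM in WT libraries. Hist1h1e had 8.0 and 8.2 CPM in KO macrophages and 10.1 and 9.5 CPM in WT macrophages, and was lower (-2.40 ± 0.15 on the log2 scale, adjusted p = 6.48e-21). Macrophages and neutrophils had low levels of this linker histone gene in every library.

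NK cells, the cytotoxic lymphocytes of the innate immune system, had higher levels of 12 of 24 members and lower levels of 2, against 55.0% of all genes called (29.7% higher and 25.3% lower). Hist1h1e had 118.1 and 121.2 CPM in KO NK cells and 128.7 and 141.2 CPM in WT NK cells (1.63 ± 0.08, adjusted p = 6.87e-24). These were the highest levels of the gene in the 9 classes, in each library. Hist1h3a (2.34 ± 0.27, adjusted p = 6.59e-10) and the H2B gene Hist1h2bj (3.08 ± 0.35, adjusted p = 3.78e-11) were also higher. Hist1h2bj rests on few molecules, with 8 and 10 UMIs in KO NK cells and 14 and 12 in WT NK cells. The linker histone gene Hist1h1d was higher as well (1.61), whereas Hist1h2bc (-1.80) and Hist1h1c (-0.38) were the 2 lower members.

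In B cells, the antibody-producing lineage, 16 of 24 members were higher and 1 was lower, against 66.6% of all genes called (40.3% higher and 26.3% lower). Hist1h3d, an H3 gene, had 6.8 and 8.5 CPM in KO B cells and 8.4 and 5.9 CPM in WT B cells (3.09 ± 0.30, adjusted p = 5.96e-13). In CD4 T cells the same gene had 0 and 1 UMI in KO libraries and 0 in both WT libraries. Hist3h2ba, an H2B gene, had 7.9 and 10.6 CPM in KO B cells and 3.8 and 9.4 CPM in WT B cells (1.98 ± 0.26, adjusted p = 1.60e-09). Hist1h2ac (1.63), Hist2h4 (1.58), Hist2h2be (1.39) and Hist3h2a (1.32) were among the other higher members. The lower member was Hist1h1c (-0.46), with 83.1 and 84.9 CPM in KO B cells and 62.2 and 63.9 CPM in WT B cells.

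In CD8 T cells 13 members were higher and 3 lower, against 65.5% of all genes called. The highest differences there were those of the H4 gene Hist1h4c (1.52), Hist1h1b (1.51) and Hist1h2bj (1.51), and Hist1h2bc was lowest (-2.08). Most Hist1h1b UMIs of this class lay in cycling-called cells, with 85 of 92 and 6 of 6 in KO libraries and 73 of 76 and 25 of 30 in WT libraries. The Hist1h1b call was lost without KO 1 (1.05, adjusted p = 0.0864). In CD4 T cells 7 were higher and 3 lower (57.6% of all genes called), with Hist3h2ba at 2.45 and Hist1h2bc at -1.48. In the other T cells 7 were higher and 3 lower (52.7%). In classical monocytes 4 were higher and 4 lower (61.4%), and in nonclassical monocytes 3 were higher and 5 lower (52.5%). The H3 gene Hist1h3d was higher in both kinds of monocyte (2.40 and 2.03). With mitochondrial counts held to at most 5%, which leaves 142 of 3667 B cells, 61 of 153 class tests were called in place of 119 of 216.

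**Figure D2:**
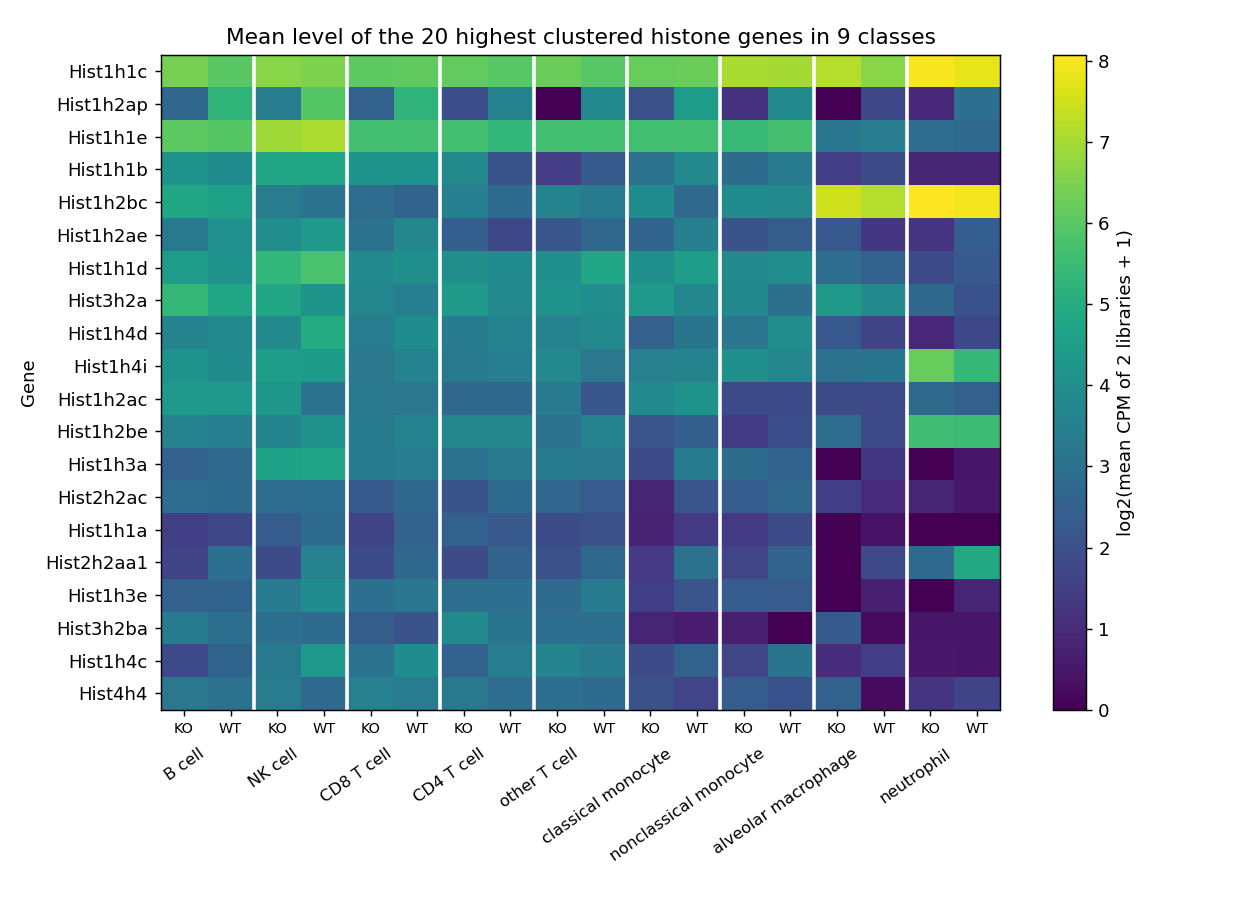
Mean level of the 20 highest members in KO (left of each pair) and WT (right) cells of 9 classes, as log2 of the mean CPM of 2 libraries plus 1. Hist1h2bc is brightest in neutrophils and alveolar macrophages and Hist1h1e in NK cells, and Hist1h2ap is darker in KO than in WT in each of these 9 classes.

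Classes too small to test stood apart in level. Basophils or mast cells (17 to 26 cells per library) had 724.4 and 770.8 CPM of Hist1h1c in KO libraries and 844.1 and 423.5 CPM in WT libraries, above the neutrophil value of the same library in each case. Platelet-like droplets were 1 and 3 in the KO libraries and 1 and 2 in the WT libraries, and Hist1h2bc and Hist1h1c made up most of their histone UMIs. There, Hist1h2bc had 21 and 77 UMIs in KO libraries and 7 and 23 in WT libraries. Platelets have no nucleus and carry RNA of the cells that shed them.

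Dividing cells were called from 27 S phase and 28 G2/M genes that include no member, after each cell had been thinned to 2000 UMIs. The T cell precursors and the cells that joined no class were left out. This gave 30 and 20 cycling cells in KO libraries and 33 and 32 in WT libraries, of all classes together. Cells in no class held a further 2 and 1 cycling-called cells in KO libraries and 1 and 18 in WT libraries. Cycling cells had a median of 15905 and 16341.5 UMIs in KO libraries and 13223 and 14783.5 in WT libraries, and resting cells had 4134 and 4577 in KO libraries and 4875.5 and 4814.5 in WT libraries. Raw UMIs were summed, and cycling cells were compared with resting cells of the same library drawn to the same mix of classes, with the library as a block. A further 120 cells were 1 gene short of the call. Of the 297 cells called, precursors and cells in no class included, 60 lay exactly on it.

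Of 17 members tested, 12 were higher and 2 lower in cycling than in resting cells, against 26.9% of all genes called (14.5% higher and 12.4% lower). The median log2 difference was 2.88 over the members tested and -0.06 over all genes. The filter on low counts took both states together, so a member could enter on its cycling counts alone, as Hist1h3c did (below). The count of higher members and this median can lean towards such members, and they do not cover the members left untested. The linker histone gene Hist1h1b had 301.6 and 448.2 CPM in KO cycling cells and 400.7 and 412.4 CPM in WT cycling cells. In matched resting cells it had 5.1 and 1.6 CPM in KO libraries and 2.2 and 2.0 CPM in WT libraries. No library overlapped, and the difference was 6.99 ± 0.28 on the log2 scale (SE, edgeR, adjusted p = 2.66e-09). Hist1h1b was found in 40% and 70% of KO cycling cells and in 63.6% and 43.8% of WT cycling cells. Over all resting cells, not only those matched, Hist1h1b was found in 2.98% and 2.12% in KO and 2.81% and 2.65% in WT libraries. These cells had the lower depth given above and were not drawn to the class mix of the cycling cells. In the neutrophil class Hist1h1b had 0 and 2 UMIs in KO libraries and 0 and 2 in WT libraries. That class held 0 and 1 cycling-called cells in KO libraries and 0 and 2 in WT libraries, and both UMIs of KO 2 and 1 of the 2 UMIs of WT 2 lay in them.

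Hist1h2ap was higher in cycling cells by 5.54 ± 0.24 (adjusted p = 4.96e-09), with 48.0 and 115.1 CPM in KO and 728.8 and 560.9 CPM in WT cycling cells. In matched resting cells Hist1h2ap had 0 and 3.3 CPM in KO libraries and 14.9 and 10.0 CPM in WT libraries. Hist1h2ae had 59.5 and 133.2 CPM in KO cycling cells and 236.7 and 164.2 CPM in WT cycling cells, against 6.3 and 3.3 CPM in KO and 3.7 and 12.0 CPM in WT resting cells (4.44 ± 0.35, adjusted p = 3.39e-06). Every cycling value of these 2 H2A genes lay above every resting value. Hist1h3c, an H3 gene, had 11 and 13 UMIs in KO cycling cells and 15 and 14 in WT cycling cells, and none in any of the 4 resting sums. Against 3 counts over the 4 resting sums, the most that a count of 0 allows, Hist1h3c was at least 34.8-fold higher in cycling cells. The other higher members were the H2A genes Hist1h2an (4.16) and Hist2h2ac (3.34), the linker histone genes Hist1h1a (3.85) and Hist1h1e (0.85), the H2B gene Hist1h2bj (3.23), the H4 genes Hist1h4d (2.88) and Hist1h4i (1.73) and the H3 gene Hist1h3a (2.36).

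The 2 lower members, Hist1h2bc and Hist1h1c, were also higher in neutrophils than in the other classes. So was Hist1h4i, which was higher in cycling cells. Resting cells were matched by number of cells and raw UMIs were summed, so classes with deeper cells weigh more and the UMI share of each class was not matched. Cycling alveolar macrophages, a class high in Hist1h2bc, numbered 0 and 1 in KO and 5 and 5 in WT libraries. The part of this mix in the 2 lower calls was not tested. Hist1h2bc had 13.4 and 30.3 CPM in KO cycling cells and 20.5 and 33.2 CPM in WT cycling cells, against 3.8 and 93.1 CPM in KO and 54.2 and 63.3 CPM in WT resting cells. KO 1 went the other way from the remaining 3 libraries, and the difference was -1.08 ± 0.34 (adjusted p = 0.0328). Hist1h1c had 57.6 and 69.6 CPM in KO cycling cells and 44.7 and 84.0 CPM in WT cycling cells, against 57.0 and 197.7 CPM in KO and 77.2 and 91.4 CPM in WT resting cells (-0.68 ± 0.22, adjusted p = 0.0352). Neither gene was called without KO 2 (adjusted p = 0.169 for Hist1h2bc and 0.26 for Hist1h1c), without WT 1 (0.188 and 0.143), without barcodes shared by libraries (0.0521 and 0.124) or with DESeq2 (0.26 and 0.135), and Hist1h2bc was not called without WT 2 (0.0969). Hist1h1d (0.77, adjusted p = 0.0988), Hist1h3e (1.70, adjusted p = 0.0557) and Hist3h2a (-0.40, adjusted p = 0.627) were tested and not called. With mitochondrial counts of at most 5%, 6 of 11 members were called, 5 of them higher, and the calls of Hist1h1e (0.24, adjusted p = 0.645), Hist1h3a (2.20, adjusted p = 0.0695) and Hist1h2bc (-0.41, adjusted p = 0.463) were lost.

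**Figure D3:**
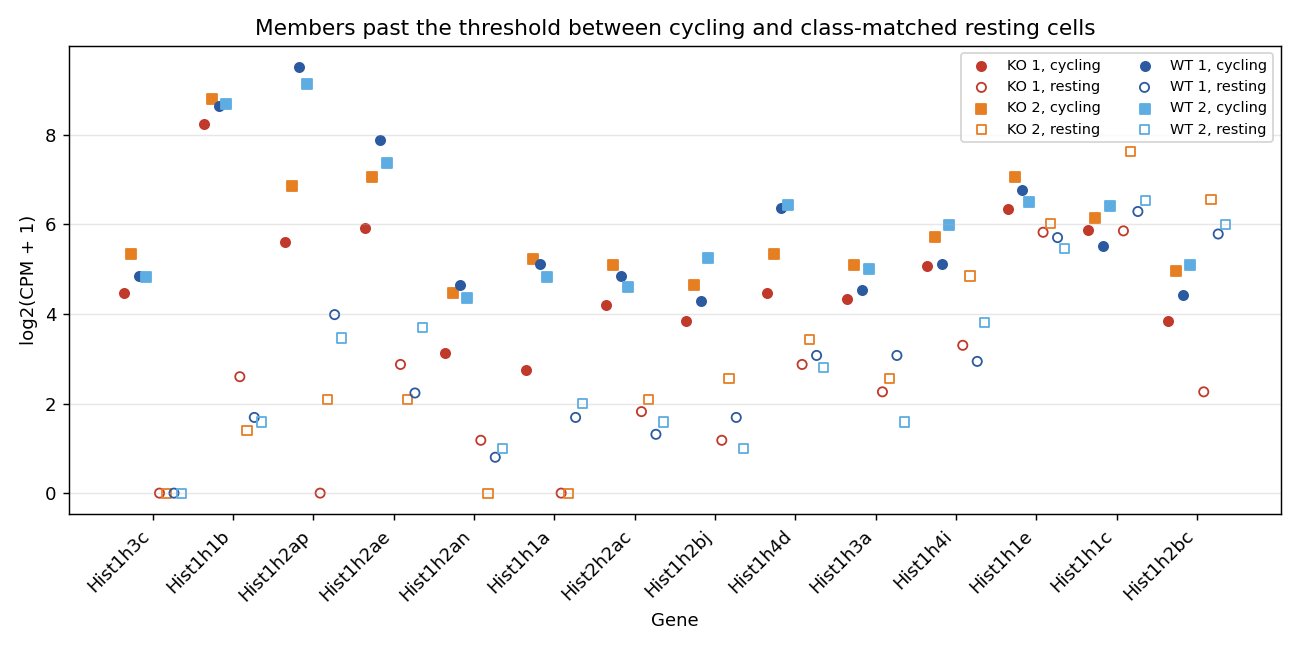
Levels, as log2 of CPM plus 1, of the 14 members called between cycling cells (filled) and class-matched resting cells (open) in each library, ordered by the fitted difference. Hist1h1b lies between 301.6 and 448.2 CPM in cycling cells and between 1.6 and 5.1 CPM in resting cells, and for Hist1h2bc the resting points lie above the cycling points except in KO 1.

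Genes that serve the histone genes were read off the same fit. Of 11 tested genes for the transcription and 3' processing of histone RNA, 5 were higher in cycling cells and none lower. Slbp, whose protein binds the stem-loop, rose by 2.03 ± 0.18 (adjusted p = 2.86e-06), with 219.0 and 433.0 CPM in KO and 262.8 and 373.3 CPM in WT cycling cells. In resting cells Slbp had 70.9 and 94.8 CPM in KO libraries and 63.9 and 62.3 CPM in WT libraries, below every cycling value. Eri1, an exonuclease that trims the stem-loop (1.41), Casp8ap2, which acts in histone RNA processing (1.40), and the cleavage factor genes Cstf2 (0.96) and Cpsf2 (0.81) were the others. Npat, an activator of histone gene transcription, had 0.83 and was not called (adjusted p = 0.156). Of 15 histone chaperone genes 10 were higher and none lower, led by Asf1b (5.49), Chaf1a (5.47) and Chaf1b (3.65), which deliver new H3 and H4 to copied DNA. Of 9 tested variant genes outside the clusters 6 were higher and none lower, among them H2afx (3.69), Cenpa, the H3 of centromeres (2.31), H2afv (2.09) and H2afz (1.61). The replacement H3 gene H3f3b (-0.15) and the linker histone gene H1f0 (0.34) were not called.

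Cycling cells were also split into S-called and G2/M-called cells by the same gene lists. Of 11 members tested, 2 were lower in S-called than in G2/M-called cells and none was higher, against 4.02% of all genes called (2.73% lower and 1.29% higher). The median log2 difference of the members was -0.89, against 0.00 over all genes. Hist1h2ae had 31.2 and 50.1 CPM in KO S-called cells and 101.7 and 84.1 CPM in WT S-called cells. In G2/M-called cells it had 76.1 and 232.3 CPM in KO libraries and 368.9 and 248.0 CPM in WT libraries, higher than in the S-called cells of the same library in every case. The difference was -1.72 ± 0.24 (adjusted p = 8.5e-04). Hist1h1b had 250 and 250.6 CPM in KO S-called cells and 282.6 and 279.0 CPM in WT S-called cells. In G2/M-called cells Hist1h1b had 331.7 and 683.6 CPM in KO libraries and 516.5 and 552.1 CPM in WT libraries (-0.92 ± 0.21, adjusted p = 0.0277). Each library again had the lower value in S-called cells, but the Hist1h1b call was lost without any 1 of the 4 libraries (adjusted p 0.0522 to 0.128).

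Hist1h3a was the only member tested with a positive difference, which was not called (2.08 ± 0.74, adjusted p = 0.162). It had 46.9 and 55.7 CPM in KO and 18.8 and 57.3 CPM in WT S-called cells, against 3.0 and 6.6 CPM in KO and 25.8 and 4.0 CPM in WT G2/M-called cells. Casp8ap2 was higher in S-called cells (1.02, adjusted p = 0.0226), as were the chaperone genes Chaf1b (1.68), Chaf1a (1.28) and Nasp (0.81). The S-called difference of Slbp was 0.95 (adjusted p = 0.108). Cenpa (-2.80), H2afx (-1.96), H1f0 (-3.00) and Hjurp, the chaperone of Cenpa (-1.04), were lower. The phase calls rest on 9 to 18 cells per library and phase, and free RNA in droplets enters them. Its part was not tested.

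The T cell precursors, which came almost all from WT 2, had the highest histone levels of any nucleated class. All members together had 4575.6 CPM in the 10 KO 2 precursors and 4715.0 CPM in the 393 WT 2 precursors. In WT 2, 154 of them were cycling, and Hist1h1b was found in 87.0% of the cycling and 36.6% of the resting precursors. Over all cells, precursors included, all members together had 1090.1 CPM in WT 2, against 371.9 and 414.5 CPM in the KO libraries and 414.0 CPM in WT 1. The precursors were left out of the genotype comparisons.

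The genotypes were compared within each of the 9 classes. Over 123 tests of 25 members, 5 were called, 4 lower and 1 higher in KO, against 1.39% of all gene tests called (0.796% lower and 0.595% higher). The 4 lower calls were all of Hist1h2ap and the higher one was Hist1h1c in alveolar macrophages, which leaves 23 tested members called in no class. An unadjusted p under 0.05 was found in 32 of the 123 tests, the 5 calls included. Over all genes, 334 higher and 516 lower of 9812 reached that p in B cells. CD4 T cells had 350 and 389 of 8435, and CD8 T cells 314 and 422 of 9150. The other T cells had 239 and 275 of 7776, and NK cells 290 and 355 of 8185. Alveolar macrophages had 939 and 853 of 8862, and neutrophils 211 and 204 of 5823. Classical monocytes had 270 and 420 of 8348, and nonclassical monocytes 415 and 458 of 8192.

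Hist1h2ap was lower in KO than in WT in B cells, NK cells, classical monocytes and nonclassical monocytes. KO B cells had 3.0 and 8.0 CPM (11 and 33 UMIs), against 39.2 and 36.1 CPM in WT B cells (173 and 135 UMIs). The groups did not overlap, and the difference was -2.79 ± 0.29 on the log2 scale (SE, edgeR, adjusted p = 3.86e-04, with 0.785% of all genes called in B cells and 0.622% called lower). KO NK cells had 3.9 and 15 CPM, against 77.0 and 44 CPM in WT NK cells (-2.62 ± 0.45, adjusted p = 0.0461, with 0.611% of all genes called and 0.501% called lower). Cycling-called NK cells held 1 of 4 and 15 of 21 of these UMIs in KO and 74 of 122 and 10 of 43 in WT libraries. KO classical monocytes had 1.7 and 4.3 CPM, against 23.4 and 17.7 CPM in WT classical monocytes (-2.70 ± 0.41, adjusted p = 0.00375, with 0.539% of all genes called and 0.431% called lower). KO nonclassical monocytes had 0.6 and 1.9 CPM, against 11.6 and 15.4 CPM in WT nonclassical monocytes (-3.31 ± 0.62, adjusted p = 6.39e-04, with 1.54% of all genes called and 1.05% called lower). In each of the 4 classes both KO libraries lay below both WT libraries.

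The Hist1h2ap calls were not all kept when a library was left out, a step that leaves 1 library in a group and takes its spread from the other. B cells lost the call without WT 1 (-2.74, adjusted p = 0.0924) and without WT 2 (-2.83, adjusted p = 0.0505), classical monocytes without WT 1 (-2.54, adjusted p = 0.157) and nonclassical monocytes without WT 2 (-3.09, adjusted p = 0.0591). NK cells lost it without barcodes shared by libraries (-2.60, adjusted p = 0.0802) and under a replicate block (-2.56, adjusted p = 0.221). DESeq2 made only 2 calls over all members and classes, so the 4 Hist1h2ap calls were not all made by it. In resting cells alone Hist1h2ap was lower in all 4 classes, at -2.69 in B cells (adjusted p = 5.41e-04), -3.13 in NK cells (6.26e-06), -2.67 in classical monocytes (0.00873) and -3.36 in nonclassical monocytes (0.0162).

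In the remaining classes Hist1h2ap was not called or had too few counts to be tested. CD4 T cells had 0 and 5.7 CPM in KO and 14.4 and 8.1 CPM in WT libraries (-2.05, adjusted p = 0.44), and CD8 T cells 6.1 and 3.2 CPM in KO and 57.3 and 17.1 CPM in WT libraries (-3.06, adjusted p = 0.701). Cycling-called CD8 T cells held 15 of 18 and 4 of 7 of the Hist1h2ap UMIs in KO and 171 of 203 and 28 of 42 in WT libraries, with up to 94 in a single cell of WT 1. Resting CD8 T cells had 1.3 and 1.1 CPM in KO and 9.2 and 6.0 CPM in WT libraries. Of all genes, 0.652% were called in CD4 T cells (0.498% lower) and 0.317% in CD8 T cells (0.262% lower and 0.0546% higher). The other T cells had 0 UMIs in both KO libraries and 24 and 4 in the WT libraries, and alveolar macrophages 0 in both KO libraries and 4 and 10 in the WT libraries. Neutrophils had 1 UMI in each KO library and 3 and 14 in the WT libraries, with 0.412% of all genes called in this class (0.189% lower). A single cycling-called cell of WT 2 held 12 of the 14 UMIs, and the 1 UMI of KO 2 also lay in a cycling-called cell. Regulatory T cells, too few to test, had 11.8 and 33.0 CPM in KO and 220.5 and 650.8 CPM in WT libraries. In each of these 6 classes both KO libraries lay below both WT libraries. The other small classes were mixed. In plasmacytoid dendritic cells Hist1h2ap made up 0% of member UMIs in both KO libraries and 11.1% and 4.08% in the WT libraries. Gamma-delta T cells overlapped, with 4 and 0 UMIs in KO and 1 and 160 in WT libraries. Plasma cells also overlapped, with 0 and 1 in KO and 38 and 0 in WT libraries.

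**Figure D4:**
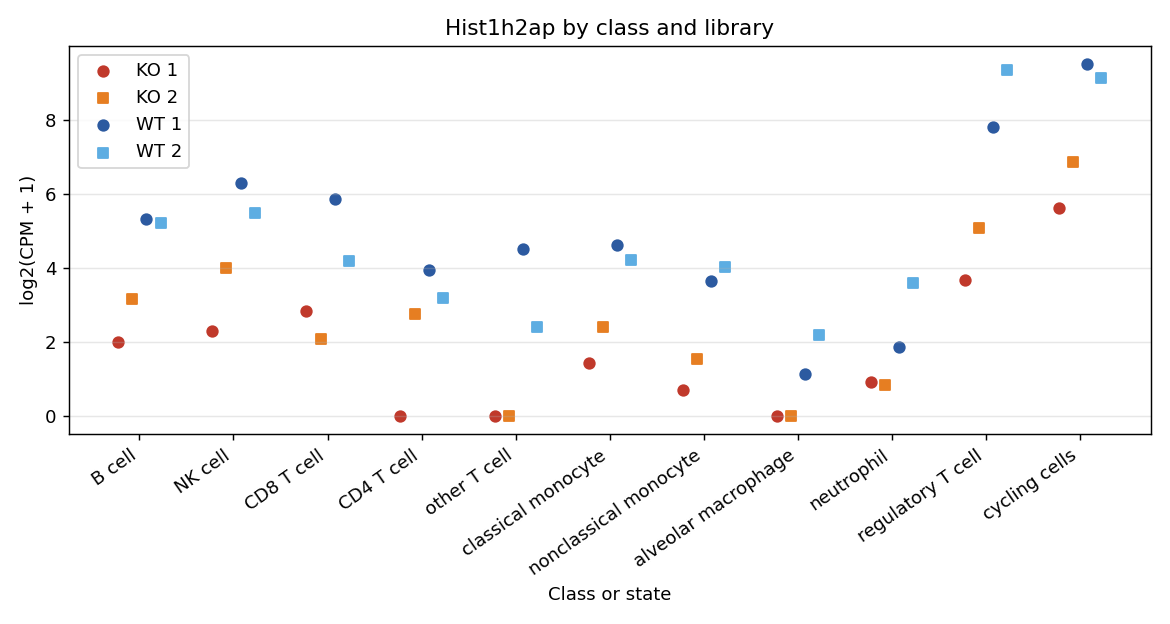
Level of Hist1h2ap, as log2 of CPM plus 1, in each of the 4 libraries by class and in cycling cells. T cell precursors and cells in no class are left out. The KO points (left) lie below the WT points (right) in the 9 tested classes, regulatory T cells and cycling cells, the groups drawn, for example 3.0 and 8.0 CPM in KO B cells against 39.2 and 36.1 CPM in WT B cells.

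The share of B cells with a Hist1h2ap UMI was 1.06% in KO 1 (95% exact interval 0.512% to 1.95%) and 3.46% in KO 2 (2.39% to 4.82%), against 13.8% in WT 1 (11.7% to 16.1%) and 13.2% in WT 2 (11% to 15.8%). B cells had a median of 3413 and 3831 UMIs in KO and 3858 and 3879 in WT libraries. With cells thinned to 2000 UMIs the shares were 0.323% and 1.58% in KO and 7.45% and 6.61% in WT B cells. In the neutrophil class, whose lower depth and few cycling-called cells are given above, the unthinned shares were 0.206% and 0.194% in KO and 0.661% and 0.568% in WT libraries. The intervals cover counting error only. The share that free RNA alone would give was not measured.

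Hist1h2ap shares nearly all of its annotated sequence with other H2A genes, whose levels were therefore set beside it. Without Hist1h2ap, the H2A genes summed to 81.4 and 82.0 CPM in KO B cells and 81.5 and 79.1 CPM in WT B cells. All 67 members summed to 402.9 and 425.5 CPM in KO and 420.3 and 399.6 CPM in WT B cells, so the total overlapped between the genotypes. Hist1h2ap made up 0.741% and 1.88% of that total in KO B cells and 9.32% and 9.03% in WT B cells. Whether the difference lies in transcription, in the 3' end of the RNA or in the assignment of reads was not tested.

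Hist2h2aa1, the other H2A gene with few windows of its own, had a negative difference in each of the 4 classes where it was tested and was called in none. Its differences ran from -2.26 to -1.22 and its lowest adjusted p was 0.0907, in neutrophils, with 2.7 and 8.8 CPM in KO and 38.2 and 19.6 CPM in WT libraries. Hist1h4d had negative differences in all 7 classes tested (-1.13 to -0.30, lowest adjusted p = 0.143) and Hist1h2ae in all 4 (-0.94 to -0.40, lowest adjusted p = 0.0691). Hist3h2a had positive differences in all 8 classes tested (0.12 to 0.92, lowest adjusted p = 0.372), and Hist1h2bc in all 9 (0.11 to 1.27, lowest adjusted p = 0.145). Hist1h1e ranged from -0.27 to 0.25 over 8 classes. Hist1h4c had negative differences in 5 of 6 classes tested and a positive one in 1 (-1.74 to 0.32, lowest adjusted p = 0.24 by edgeR). Its unadjusted p was under 0.05 in 5 classes, as was that of Hist1h2ap. None of the genes in this paragraph passed the test in any class, and a p that misses the threshold does not show that the levels were equal.

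Hist1h1c was higher in KO than in WT alveolar macrophages. It had 136.9 and 153.3 CPM in KO macrophages and 106.9 and 92.2 CPM in WT macrophages, with no overlap between the groups (0.60 ± 0.16, adjusted p = 0.02, with 6.97% of all genes called in this class and 3.83% called higher). KO libraries had 50 and 28 of these cells and WT libraries 200 and 208, so the KO sums rest on 86 and 75 UMIs. The call was lost with DESeq2 (0.61, adjusted p = 0.13), with a stricter gate (0.45, adjusted p = 0.104), without KO 2 (0.53, adjusted p = 0.0729), without WT 1 (0.69, adjusted p = 0.0516) and without WT 2 (0.50, adjusted p = 0.184). It was also lost with resting cells only (0.71, adjusted p = 0.0885), under a replicate block (0.61, adjusted p = 0.0526) and with mitochondrial counts of at most 5% (0.59, adjusted p = 0.14). In the other 8 classes Hist1h1c ranged from -0.10 to 0.36 and was not called. Across classes, the KO effect in macrophages was set against the mean KO effect of the other classes, and 1 of 16 members was called, against 3.11% of all genes (1.80% higher). It was the H4 gene Hist2h4 (3.56 ± 0.98, adjusted p = 0.0277), on 1 and 8 UMIs in KO and 3 and 1 in WT macrophages. The same test gave 0.45 for Hist1h1c (adjusted p = 0.174).

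**Figure D5:**
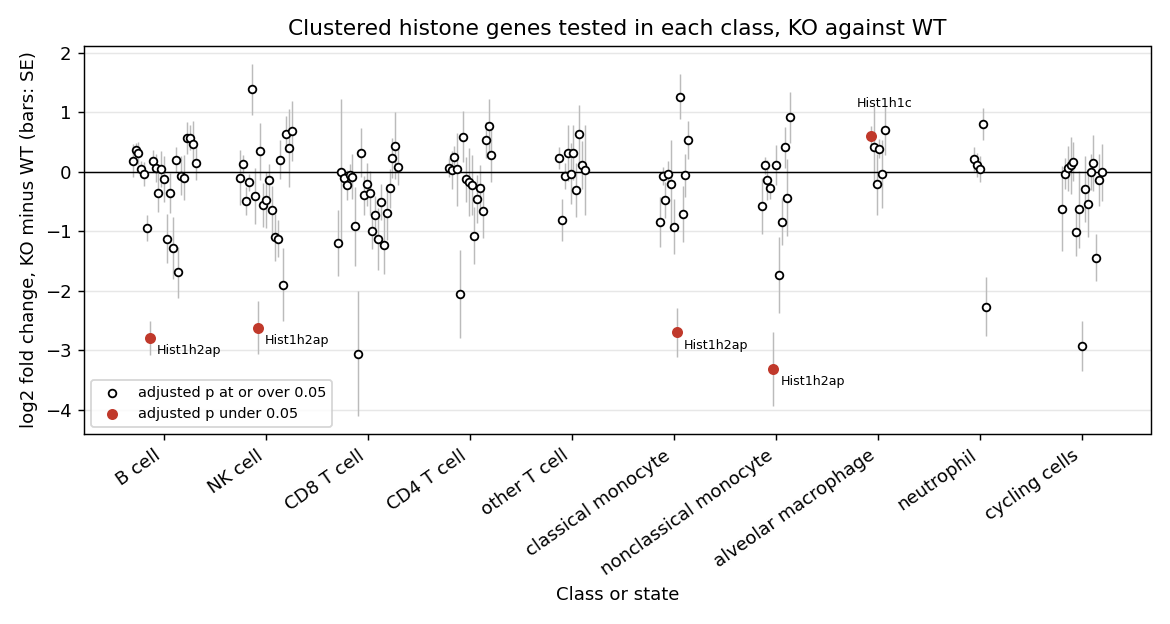
Log2 fold change (KO minus WT) with its SE for every member tested in each of the 9 classes and in cycling cells, with the 5 calls in red. The red points below 0 are Hist1h2ap (-2.62 to -3.31) and the one above 0 is Hist1h1c in alveolar macrophages (0.60).

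In cycling cells outside the T cell precursors and the cells in no class, 0 of 15 members were called between KO and WT by edgeR. Of all genes, 0.413% were called (0.321% lower and 0.0918% higher). At an unadjusted p under 0.05 there were 3 members, all lower, against 350 higher and 411 lower of 6534 genes. DESeq2 called 1 member. Hist1h2ap had 48.0 and 115.1 CPM in KO cycling cells, against 728.8 and 560.9 CPM in WT cycling cells (-2.92 ± 0.42, adjusted p = 0.0504). The groups did not overlap, as for Hist1h4d, with 21.1 and 39.4 CPM in KO and 82.0 and 86.0 CPM in WT cycling cells (-1.44 ± 0.39, adjusted p = 0.174). Hist1h2ae (-1.0, adjusted p = 0.394) was the third. Hist1h1b (-0.03 ± 0.26, adjusted p = 0.984) and Hist1h3c (0.15 ± 0.46, adjusted p = 0.951) overlapped between the genotypes. The class mix of the cycling cells was not matched between KO and WT. They included 0 and 1 alveolar macrophages in KO and 5 and 5 in WT libraries. CD8 T cells among them numbered 11 and 4 in KO and 4 and 5 in WT libraries. The part of this mix in these differences and in the sums below was not tested.

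All members together had 923.9 and 1505.0 CPM in KO cycling cells, against 2100.6 and 1968.2 CPM in WT cycling cells. Without Hist1h2ap the sums were 875.9 and 1389.9 CPM in KO and 1371.8 and 1407.3 CPM in WT cycling cells, which overlap. By kind, H2A was separated, with 184.4 and 411.8 CPM in KO and 1103.4 and 865.8 CPM in WT cycling cells. Without Hist1h2ap the H2A sums were 136.4 and 296.8 CPM in KO and 374.6 and 304.9 CPM in WT cycling cells. These lie closer together, but both KO sums were still below both WT sums. H4 was separated as well, with 73.0 and 124.2 CPM in KO and 162.2 and 175.9 CPM in WT cycling cells. H1 overlapped, with 491.7 and 708.6 CPM in KO and 611.4 and 658.7 CPM in WT cycling cells, as did H2B, with 99.9 and 142.3 CPM in KO and 119.3 and 160.3 CPM in WT, and H3, with 74.9 and 118.1 CPM in KO and 104.4 and 107.5 CPM in WT. The share of cells called cycling was 0.95% and 0.662% in KO and 0.968% and 1.13% in WT libraries. Precursors, cells in no class and cells under 2000 UMIs were left out of it.

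The related genes outside the clusters were also compared between KO and WT. None of the tested genes for histone RNA transcription and processing was called in any class or in cycling cells by edgeR, and at an unadjusted p under 0.05 there was at most 1 such gene per class. DESeq2 was not run for these genes. In cycling cells Cenpa was higher in KO (1.60 ± 0.27, adjusted p = 0.0471), with 599.3 and 405.8 CPM in KO and 206.9 and 144.6 CPM in WT libraries, the only 1 of 9 variant genes tested that was called there. In the same fit 27 of 28 G2/M genes had positive differences (median 0.63), of which 11 had an unadjusted p under 0.05 and none was called. The part of this shift in the Cenpa difference was not tested. Lmna was lower there (-3.09, adjusted p = 0.0471). In alveolar macrophages 3 of 9 variant genes were higher, against 3.83% of all genes, and 2 of 14 chaperone genes lower, against 3.15%. There the variants H2afj (0.65, adjusted p = 0.003), H3f3a (0.49, adjusted p = 0.0124) and H3f3b (0.40, adjusted p = 0.0369) were higher in KO, and the chaperone genes Hjurp (-1.35, adjusted p = 0.0141) and Atrx (-0.61, adjusted p = 0.0225) were lower. H2afz was higher in KO nonclassical monocytes (0.47, adjusted p = 0.0156), 1 of 9 variant genes tested, against 0.488% of all genes called higher.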

How the data were processed

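Lung cells were profiled with a 3' single-cell kit that counts UMIs. The authors deposited matrices of raw UMI counts, genes by barcodes, for the 4 libraries. Cell Ranger 3.0.2, Seurat 3.0.0 and the mm10 build are named per the submitters' processing notes, and the annotation release is not given in the sources used here. Reads of stretches shared by several members can be dropped or assigned by such counting, which affects the near-identical H2A genes most.

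Barcodes needed 200 detected genes, and mitochondrial counts were limited to 10%. Doublets were removed by comparison with simulated doublets, which removed 103 to 124 barcodes per library. A cell joined a class when it had at least 3 of its markers and 2 more than of any other class, and the 9 classes with at least 25 cells in every library were tested. Cycling cells had at least 3 G2/M or 6 S phase genes after thinning to 2000 UMIs, and resting cells had no G2/M gene and at most 2 S phase genes. The 1097 cells under 2000 UMIs, 769 of them neutrophils, were not called. Each cycling cell was matched with 5 resting cells of its class and library where these existed.

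Counts were summed per library and class and tested with edgeR 4.0.16 (quasi-likelihood, TMM, filterByExpr, robust) in R 4.3.3 with limma 3.58.1, with Benjamini-Hochberg adjustment over all genes at 0.05. DESeq2 1.42.0 was an alternative. Other steps used Python 3.11.15, numpy 2.4.6, scipy 1.17.1, pandas 2.3.3, scikit-learn 1.9.0 and matplotlib 3.10.9. The fits were tested on simulated data. Alternatives were other size factors, no filter on low counts, each library left out, a replicate block, doublets kept, a limit of 5% mitochondrial counts, stricter gates and cycling calls, precursors included and the class mix not matched. Added after seeing the data were resting cells only, no shared barcodes and no regulatory T cells. Intervals are 95% exact (Clopper-Pearson) and, like the limit of 3 counts behind a count of 0, cover counting error only. The members and gene lists were chosen with earlier results of these data known. Values are given for the 20 members with the most UMIs, for every member called, and for leading genes of each list by p.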

Additional observations from a re-analysis of the deposited data

Results flagged for a closer look

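The KO effect of Hist2h4, an H4 gene, differed between alveolar macrophages and the mean of the other classes by 3.56 ± 0.98 on the log2 scale (edgeR's interaction test, adjusted p = 0.0277). It had 1.6 and 16.3 CPM in KO macrophages, against 0.9 and 0.4 CPM in WT macrophages. These values rest on 1 and 8 UMIs in KO and 3 and 1 UMIs in WT libraries, and most of the KO molecules came from KO 2. No member was called by this test without KO 2, without WT 1 or without WT 2.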

How the results depend on the processing

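For the comparison of KO with WT in each class, 5 calls became 2 with DESeq2, 14 with no filter on low counts, and 2 to 8 with a library left out. In cycling cells 0 calls became 1 with DESeq2, 2 with no filter, 1 with doublets kept, 1 without barcodes shared by libraries and 0 to 2 with a library left out. Leaving out a library leaves 1 library in its group, which is assumed to vary like the other group. For cycling against resting cells, 14 calls became 6 with mitochondrial counts of at most 5%, 23 with precursors included and 28 with the class mix not matched, and 12 to 15 with a library left out. For S-called against G2/M-called cells, 2 calls became 4 with no filter, 0 with at most 5% mitochondrial counts, 1 without regulatory T cells and 1 with any library left out. For the classes, 119 calls became 61 with at most 5% mitochondrial counts, which keeps 6098 of 14720 cells, and 104 to 115 with a library left out. That limit reversed Hist1h2bc in B cells (-0.050), Hist1h2be (-0.26) and Hist1h1e (-0.077) in CD4 T cells and Hist1h4i in CD8 T cells (0.20). The call of the macrophage interaction numbered 0 to 1 with a library left out. The cause of these changes was not tested, except that fewer cells and members enter under the 5% limit. With the replicate block, 6 members were called in the classes and 1 in cycling cells. The deviations of KO 1 and WT 1 correlated at 0.0206 to 0.136 in the classes and 0.304 in cycling cells, over only 2 numbers, so the numbers were taken to name samples and not to pair them. Of 1302 alternative values, 1180 kept their direction and side of the threshold, 118 kept only the direction and 4 reversed. Alternatives that did not test a called member, or gave it no adjusted p, are not among the 1302, so the share kept can be overstated. Most of the 1302 were contrasts between classes. Of the 274 others, 37 kept only the direction. Depth limits members with few UMIs, of which 19 had 1 to 99 over all libraries.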

Other observations

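Gamma-delta T cells of WT 2 stood apart from those of the other libraries, with 2491.0 CPM of all members together, against 424.8 and 180.5 CPM in KO libraries and 327.6 CPM in WT 1. Regulatory T cells had 483.7 and 568.1 CPM in KO libraries and 897.6 and 1986.0 CPM in WT libraries. Both classes were too small to test.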
